A study of Homo sapiens with 2 samples.

Results

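The miR-128 hairpins were described by the 3 of 2632 miRNA probes on the array that carry their mature products: the 3p arm shared by both hairpins, the 5p arm of the first hairpin (miR-128-1-5p) and the 5p arm of the second (miR-128-2-5p). The probes were chosen by name, with the spot readings of these arrays already known, so their levels are given as a description. Each has 1 spot per array. The RNA came from exosomes, small vesicles that cells shed into their medium, of U87MG delta EGFR, a glioblastoma line derived from U87MG whose name refers to a shortened form of the epidermal growth factor receptor. The BNCT array held exosomal RNA of cells given boron neutron capture therapy: 25 ppm of a p-boronophenylalanine-fructose complex for 2 hours, then thermal neutrons, with medium taken 3 days after irradiation. The control array held that of non-treated cells. A single treatment text stands under both samples in the labels, and it was read here as describing the BNCT cells, so compound, neutrons, handling and time of collection cannot be told apart. The titles name exosomes, whereas the extraction text in the labels speaks of cells. Both groups come from 1 cell line and each has 1 array, so no test was possible and no p-value is given.

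miR-128 is a brain-enriched miRNA of neurons, and its 3p arm is the strand that is loaded into Argonaute and pairs with messenger RNAs. In glioma work the 3p arm is known as a growth-restraining miRNA that targets BMI1, a stem cell factor, E2F3, a cell cycle factor, and the growth factor receptors EGFR and PDGFRA. The hairpins lie in introns of R3HDM1 and ARPP21, genes that encode related RNA-binding proteins, and the 5p arms are the strands usually discarded.

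In RefSeq (GRCh38.p14) MIR128-1 lies at chr2:135665397-135665478 on the plus strand, inside R3HDM1 (chr2:135531484-135725269). MIR128-2 lies at chr3:35744476-35744559 on the plus strand, inside ARPP21 (chr3:35638853-35794486). The hairpins are shown because they give an identical 3p arm and different 5p arms. Capitals mark the mature arms, 5p first.
MIR128-1: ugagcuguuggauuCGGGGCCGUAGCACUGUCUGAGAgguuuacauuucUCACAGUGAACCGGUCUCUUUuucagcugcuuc
MIR128-2: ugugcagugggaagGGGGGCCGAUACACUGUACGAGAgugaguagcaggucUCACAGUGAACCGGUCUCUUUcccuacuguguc
The array therefore cannot tell which hairpin a 3p signal comes from, while each 5p arm has a probe of its own.

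The mature sequences follow with the seed, bases 2 to 8, in capitals.
hsa-miR-128-3p: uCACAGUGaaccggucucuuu
hsa-miR-128-1-5p: cGGGGCCGuagcacugucugaga
hsa-miR-128-2-5p: gGGGGCCGauacacuguacgaga
The 5p arms share the seed GGGGCCG, and no other mature miRNA of the 2337 array names matched to a RefSeq sequence has it. They are identical at 17 of 23 positions and differ by C1G, U9A, A10U, G11A, C18A and U19C, with the base of miR-128-1-5p first, positions counted from the 5′ end and the base of miR-128-2-5p last. How far each 5p probe also binds the other 5p arm was not tested. The seed of the 3p arm, CACAGUG, is shared at the same position by miR-216a-3p and miR-3681-3p, and stands 1 base further in from the 5′ end in miR-27a-3p and miR-27b-3p.
hsa-miR-216a-3p: uCACAGUGgucucugggauuau
hsa-miR-3681-3p: aCACAGUGcuucauccacuacu
hsa-miR-27a-3p: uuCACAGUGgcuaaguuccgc
hsa-miR-27b-3p: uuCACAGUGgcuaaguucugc

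By a limit from blank spots, the signal of the miR-128 hairpins came from the 5p arms on both arrays. Only miR-128-2-5p also stood clear of the spots that carry no probe. A probe counted as detected when its spot lay more than 2 SD over the mean of the blank spots on that array, with the top and bottom 5% of the blanks left out. That limit was 267.5 scanner units on the BNCT array and 272.0 on the control array. Over all probes 36.2% were detected on the BNCT array, 28.6% on the control array and 23.9% on both. Among the miR-128 probes both 5p arms were detected on both arrays and the 3p arm on neither. On the control array even the lowest of the spots that carry no probe, at 274.3 units, was over the 272.0 limit. Fewer vesicles and less miRNA per vesicle cannot be told apart in such samples.

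The 3p arm, hsa-miR-128-3p, read 263.0 units on the BNCT array and 264.1 units on the control array. It was 1.29 SD over the blank mean on the BNCT array and 0.859 SD over it on the control array, and 45 of 312 blank spots in BNCT and 85 of 312 in control were brighter. The probe was thus not well above background on either array, and no fold change is given for it. The strand for which miR-128 is known as a glioma suppressor was not detectable in these exosome samples at this signal.

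The 5p arm of the first hairpin, hsa-miR-128-1-5p, read 307.0 units on the BNCT array and 289.2 units on the control array. It lay 8.31 SD over the blank mean in BNCT and 4.49 SD in control, and none of the 312 blank spots on either array was brighter. Against the spots that carry no probe it stood out less. Those 112 spots ran higher than the blanks, from 265.6 to 326.6 units in BNCT and from 274.3 to 330.5 units in control. The reading of miR-128-1-5p was above 100 of them on the BNCT array and above 13 of them on the control array, so in control it lay inside their range and toward its lower end. With a limit set 2 SD over the mean of these spots, 313.6 units in BNCT and 322.2 units in control, it was undetected on both arrays.

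The 5p arm of the second hairpin, hsa-miR-128-2-5p, was the bright member, at 462.5 units on the BNCT array and 365.1 units on the control array. It lay 33.1 SD over the blank mean in BNCT and 15.4 SD in control, and above all 112 spots without a probe on both arrays. By spot brightness it ranked 119 of 2632 on the BNCT array and 136 of 2630 on the control array, where 2 flagged spots were left out. The 3 readings come from different probes, so their order is one of brightness and not of abundance.

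**Figure D1:**
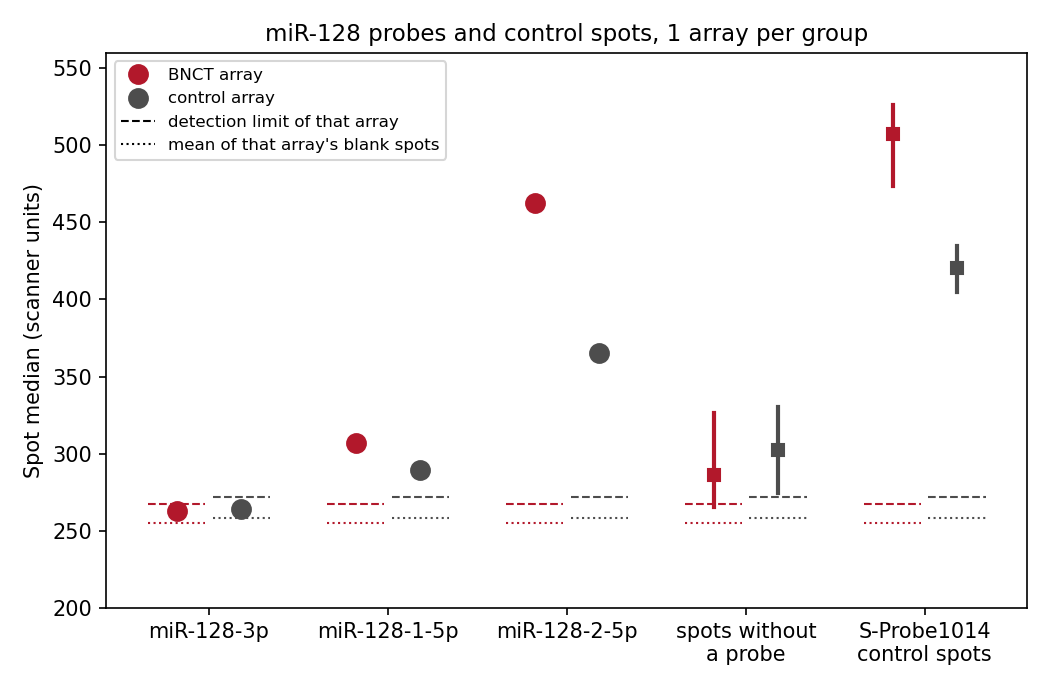
Spot medians in scanner units for the miR-128 probes (1 circle per array, BNCT left of control), with the median (square) and full range (line) of the spots without a probe and of a control probe. miR-128-2-5p stands clear of both dashed detection limits and of the spots without a probe, miR-128-1-5p lies within the range of those spots, and miR-128-3p is below the limit on both arrays.

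The raw brightness of both 5p arms was higher on the BNCT array, by ratios near those of other detected probes. After subtraction of the blank mean miR-128-2-5p was at 207.6 units in BNCT and 106.9 units in control, a ratio of 1.94 (spot error 0.23). The spot error combines the spread of the blank spots with the coefficient of variation of the spike control spots, and covers noise within an array only. miR-128-1-5p was at 52.1 units in BNCT and 31.1 units in control, a ratio of 1.68 (spot error 0.45). The median ratio of the 630 probes detected on both arrays was 1.64, and 27.9% of them had a larger ratio than miR-128-2-5p and 46.5% a larger one than miR-128-1-5p. A control probe of similar brightness on the array, S-Probe1014, averaged 503.5 ± 17.6 units in BNCT and 419.0 ± 9.48 units in control (SD over 8 spots each). Its blank-subtracted ratio was 1.54. The standard error of that ratio, 0.05, comes from the spread of its 8 spots per array and is not a spot error as defined above. The far brighter spike controls went the other way. The first averaged 24893 units in BNCT and 31111 in control, and the second 35803 in BNCT and 42123 in control. The ratio of miR-128-2-5p was 1.31 spot errors above the array-wide median, and that of miR-128-1-5p was 0.074 spot errors above it.

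In the reported setting, described next, neither 5p arm differed between BNCT and control beyond its spot error, but the size of the differences depended on the setting. Background correction on the blank spots was followed by quantile normalization, which forces the same distribution of levels on both arrays. Any array-wide shift is thereby removed. In this setting miR-128-2-5p had a log2 level of 7.71 in BNCT and 7.59 in control. Its difference was 0.12 (BNCT minus control, spot error 0.14). miR-128-1-5p had a log2 level of 6.48 in BNCT and 6.55 in control, a difference of -0.07 (spot error 0.16). The difference of miR-128-2-5p exceeded that of miR-128-1-5p by 0.19, with a spot error of 0.214. In the 12 other settings tried that gap ran from 0.08 to 0.38 and was over 0.214 in 6 of them. These are not 12 separate checks, since a scaling constant per array cancels in the gap. Median, 75th percentile and spike scaling and no normalization all gave 0.38. Plain blank subtraction with median scaling or no normalization, and the authors' values, all gave 0.212. The error of 0.214 was computed for the reported setting alone. The size of the gap thus depended on the setting, and whether it passes the error of another setting was not tested. The median difference over the 630 probes detected on both arrays was -0.02, with an SD of 0.22 across probes. Of these 630, 23.5% had a larger difference than miR-128-2-5p and 61.1% a larger one than miR-128-1-5p. On this scale no 5p arm reached 2-fold, and neither did any of the 630 probes (0% higher and 0% lower by that rule). The scale holds an added offset of 50 units, which shrinks the differences of dim probes. A 2-fold change in their signal could therefore fall short of the rule. With plain blank subtraction 16 of the 630 were at least 2-fold higher and 24 at least 2-fold lower. In the reported setting a difference of at least 1 spot error in the higher direction was found for 19.4% of the 630, and for neither 5p arm.

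**Figure D2:**
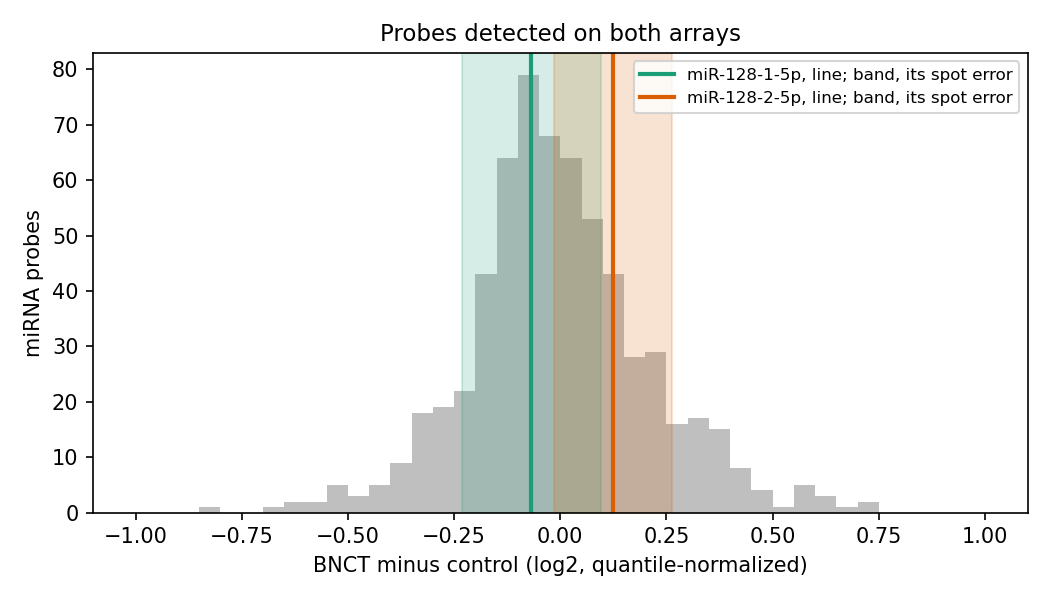
Histogram of the normalized log2 differences (BNCT minus control, x axis) of the 630 probes detected on both arrays, with the number of probes on the y axis. The lines mark miR-128-2-5p at 0.12 and miR-128-1-5p at -0.07, each with a band of 1 spot error on either side. Both lines fall in the body of the distribution and their bands overlap.

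The sign for miR-128-1-5p depended on the scaling and on the background correction, whereas miR-128-2-5p was above 0 in each of the 12 other settings tried. miR-128-1-5p was above 0 in 5 of the 12, with values between -0.22 and 0.74, and miR-128-2-5p ranged between 0.0155 and 1.0002. In size, the difference of miR-128-2-5p was past its reported spot error of 0.14 in 9 of the 12 settings, and that of miR-128-1-5p past 0.16 in 7. These errors were computed for the reported setting alone. The largest values came without normalization and with spike scaling. Without normalization the median of all probes detected on both arrays moved to 0.45, and with scaling to the spike controls to 0.73. miR-128-2-5p reached the 2-fold line with spike scaling alone, where 95 of 630 probes (15.1%) were at least 2-fold higher and 0 lower. In each setting miR-128-2-5p lay above the median of all probes, with 14.9% to 27.9% of probes above it. For miR-128-1-5p that share was 28.3% to 63.0%. In the authors' processed values, background-subtracted and scaled to a median of 25 on each array, miR-128-2-5p was 134.6 in BNCT and 85.8 in control. There miR-128-1-5p was 33.8 in BNCT and 25.0 in control, and miR-128-3p was not listed on either array. The authors' values gave ratios of 1.57 for miR-128-2-5p and 1.35 for miR-128-1-5p, against a median ratio of 1.33 over the 635 probes listed on both arrays.

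**Figure D3:**
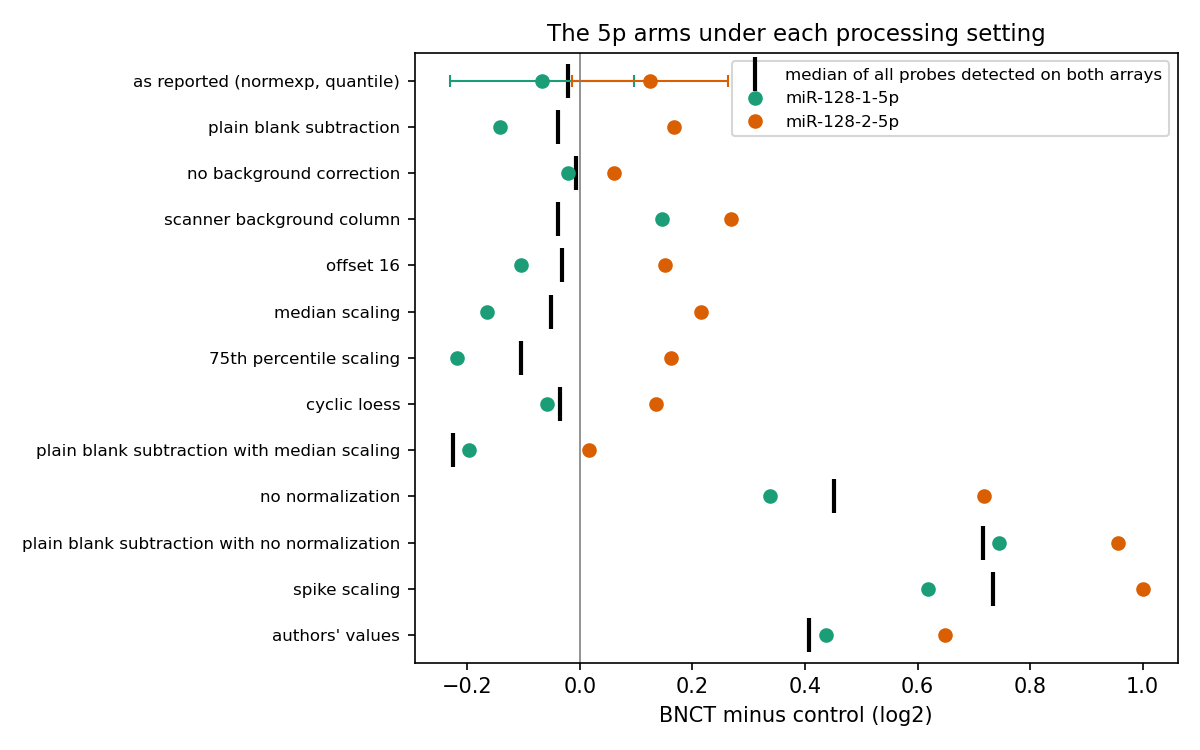
Difference BNCT minus control on the log2 scale (x axis) for miR-128-1-5p and miR-128-2-5p under each processing setting (y axis), with 1 spot error as bars in the top row. The black ticks mark the median of the 630 probes detected on both arrays (635 listed probes for the authors' values). miR-128-2-5p is to the right of miR-128-1-5p and of the tick in every setting shown.

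The pattern of arms, with the 5p arm detected and the 3p arm not, was common on these arrays. Of 806 hairpins in RefSeq with both arms on the array, the 5p arm alone was detected for 209 (25.9%) on the BNCT array and 192 (23.8%) on the control array. The 3p arm alone was detected for 97 (12.0%) on the BNCT array and 88 (10.9%) on the control array. For 122 hairpins (15.1%), among them MIR128-1 and MIR128-2, the 5p arm alone was detected on both arrays, against 42 (5.21%) with the 3p arm alone on both.

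The arms of miR-128 also differ in base composition. miR-128-1-5p has 65.2% G and C and miR-128-2-5p 60.9%, with 9 G in each, while miR-128-3p has 47.6% and 4 G. Across the 2335 unflagged probes with a RefSeq sequence, brightness went with GC content (Spearman rho 0.63 on the BNCT array and 0.55 on the control array). This is a description across probes that share an array, not a test. Among 435 probes of 60% to below 70% GC, the class of both 5p arms, 69.7% were detected in BNCT and 59.3% in control, with median spots of 279.4 units in BNCT and 277.3 units in control. Among 543 probes of 40% to below 50% GC, the class of the 3p arm, 12.0% were detected in BNCT and 8.84% in control, with median spots of 255.4 units in BNCT and 256.9 units in control. In that light both 5p arms lay above the median of their class on both arrays, and so did the 3p arm.

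Both 5p arms hold a run of G followed by C within their seed. The 5 letters GGGGC, a motif chosen after the sequences were seen, occur on the mature strand of 102 of 2335 probes (4.37%), both 5p arms included. Of these probes 95.1% were detected in BNCT and 88.2% in control, while of the 2233 probes without the motif 33.6% were detected in BNCT and 26.2% in control. The median spot of probes with the motif was 393.1 units in BNCT and 332.6 units in control, so miR-128-2-5p was above that median on both arrays and miR-128-1-5p below it. The part of base composition in the detection of the 5p arms was not tested. The normalized differences of the 568 probes with a RefSeq sequence that were detected on both arrays had little relation to GC content (rho -0.13) or to G content (rho 0.12).

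**Figure D4:**
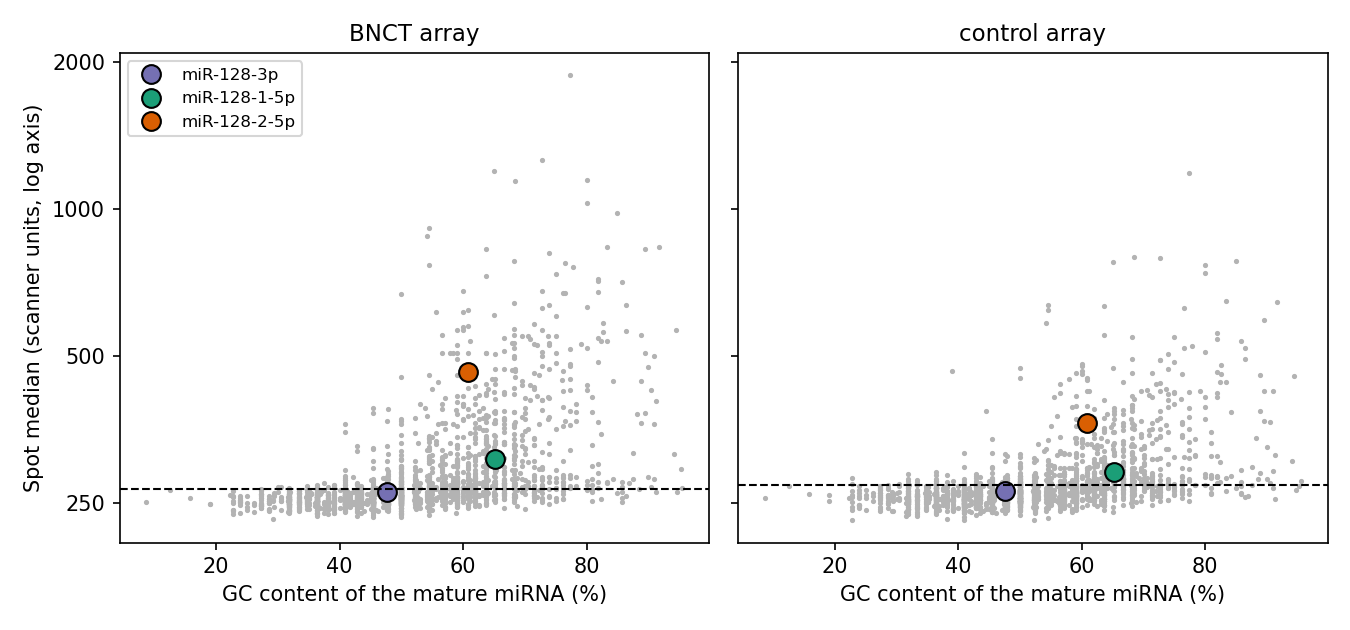
Spot median (log axis, scanner units) against the GC content of the mature miRNA for 2335 probes, BNCT array left and control array right, with the detection limit dashed. The miR-128 5p arms sit at 65.2% and 60.9% GC among many detected probes, and the 3p arm at 47.6% GC among probes that are mostly below the limit.

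The other carriers of the 3p seed were at the level of the blanks as well. miR-216a-3p, a pancreas-enriched miRNA, read 257.1 units in BNCT and 260.1 units in control. miR-3681-3p read 249.8 units in BNCT and 245.9 units in control. Of the miRNAs with the seed moved by 1 base, miR-27a-3p, which is transcribed with miR-23a and miR-24, read 252.0 units in BNCT and 268.9 units in control. Its paralog miR-27b-3p read 262.1 units in BNCT and 266.9 units in control, and miR-9985, whose seed region matches the same letters, was also under both limits. With miR-128-3p, none of the 6 miRNAs that carry CACAGUG at or next to the seed position was detected on either array. Over all probes 63.8% were undetected in BNCT and 71.4% in control, so nothing particular to the seed is read from that count.

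Other miRNAs of neurons and of growth restraint in glioma were detected in smaller shares than all probes. The lists were not matched to all probes in GC content, with which brightness went. Of 17 miRNAs on the array listed as neuronal 4 were detected in BNCT (23.5%) and 1 in control (5.88%), and none on both. Over all probes the shares were 36.2% in BNCT and 28.6% in control. Of the blank spots themselves 5.13% were over the limit in BNCT and 5.45% in control. Detected in BNCT alone was miR-124-3p, an abundant neuronal miRNA, at 269.7 units in BNCT and 270.9 units in control, where the limit is higher. The activity-induced miR-132-3p was detected in BNCT alone as well (269.2 units, against 265.1 in control), like miR-149-5p (271.4 units, against 263.1 in control) and miR-330-3p (268.5 units, against 262.4 in control). Each of these lay within 4 units of the BNCT limit. The only listed miRNA detected in control was miR-219a-5p, a miRNA of oligodendrocyte maturation rather than of neurons. It read 246.2 units in BNCT and 285.2 units in control. None of the detected neuronal readings was above the brightest spot without a probe, 326.6 units in BNCT and 330.5 in control. The summed signal of the 17 over the blank mean was 14.2 units in BNCT and 1.37 units in control, with no error computed for these sums.

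Of 16 growth-restraining glioma miRNAs, a list that shares 4 names with the neuronal one, 4 were detected on each array (25%), beside 36.2% of all probes in BNCT and 28.6% in control. miR-491-5p, which lies at a locus often lost in glioblastoma, was on both, at 304.9 units in BNCT and 281.2 units in control (difference 0.15, spot error 0.18). miR-145-5p was on both as well, at 277.6 units in BNCT and 274.2 units in control (difference 0.03, spot error 0.20). Its control reading was under the lowest spot without a probe on that array, at 274.3 units. The neuronal miR-124-3p and miR-181b-5p (270.2 units, against 250.8 in control) were detected in BNCT alone. The p53 target miR-34a-5p (237.6 units in BNCT, 276.8 in control) and miR-205-5p (264.9 units in BNCT, 274.5 in control) were detected in control alone. None of the detected readings in this list was above the brightest spot without a probe, 326.6 units in BNCT and 330.5 in control.

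Marker miRNAs of the cell line and of other cell types were mostly under the limits, as were 63.8% of all probes in BNCT and 71.4% in control. Of 11 miRNAs typical of glial and glioma lines, miR-24-3p was bright on both arrays (915.6 units in BNCT, 620.0 in control), miR-29a-3p was detected in BNCT alone (276.5 units, against 255.4 in control) and miR-23a-3p in control alone (259.0 units in BNCT, 280.5 in control). miR-21-5p, the best known glioblastoma miRNA, was under both limits (255.7 units in BNCT, 260.2 in control). Of 9 blood and serum miRNAs 3 were detected in BNCT and 0 in control. They were miR-223-3p (273.8 units, against 268.2 in control), miR-486-5p (270.5 units, against 259.8 in control) and miR-144-3p (268.9 units, against 254.4 in control). The count depends on the limits, which differ between the arrays. The control reading of miR-223-3p was over the BNCT limit of 267.5 units. At the control limit of 272.0 units only miR-223-3p would be detected in BNCT. The summed signal of the blood list over the blanks was 56.0 units in BNCT and 10.8 units in control, with no error computed for these sums. Of 7 epithelial miRNAs 0 were detected in BNCT and 1, miR-205-5p, in control. Apart from miR-24-3p, no detected reading in these lists was above the brightest spot without a probe, 326.6 units in BNCT and 330.5 in control.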

How the data were processed

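Exosomal miRNA was measured on Toray 3D-Gene arrays (1 colour, Cy5), 1 per group, and groups came from the treatment label. The scanner files were deposited unscaled and, per the file headers, give the median intensity of each spot and of its background, with least-squares lines linking 3 scanner gains (r2 between gains 1 and 2 of 0.998 in BNCT and 0.910 in control). The authors' processed intensity of a probe equals its spot median minus a constant (254.9 in BNCT, 258.1 in control), divided by 1.54 in BNCT and 1.25 in control. The sources used here do not name the software.

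Spots were background-corrected in R 4.3.3 with limma 3.58.1 (nec on the blank spots, offset 50), put on the log2 scale and, after control spots and 2 flagged spots were left out, quantile-normalized over all miRNA probes. The spot error combines the trimmed blank SD (6.27 units in BNCT, 6.93 in control) and the spike control CV (8.03% in BNCT, 4.86% in control). The blank spots replaced the scanner's background column, which stood at a median of 21836 units in BNCT and 20539 in control at spots of the first spike control, so it follows signal. Precision is limited by the number of arrays.

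Mature and hairpin sequences came from RefSeq (GRCh38.p14) and were matched by name for 2337 of 2616 single-name probes. The miR-128 probes, the marker lists and the settings were chosen with earlier results of these data known. Named miRNAs are the miR-128 probes, those sharing their seeds, the detected members of the lists and the 2 probes nearest to each miR-128 probe. miR-21-5p, the control probe S-Probe1014 and the brightest printed neighbours miR-6822-5p and miR-6792-5p were added outside this rule after their values were seen. The procedure was tested on simulated data. No result of that test is given here, so it does not show how well differences of the miR-128 probes are recovered.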

Additional observations from a re-analysis of the deposited data

How the results depend on the processing

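The difference of miR-128-2-5p stayed within 1 spot error of its reported value of 0.12 in 7 of 12 other settings. It moved to 0.27 with the scanner's background column, 0.72 without normalization, 1.0002 with spike scaling, 0.96 with plain blank subtraction and no normalization, and 0.65 in the authors' values. That of miR-128-1-5p, reported as -0.07, also stayed within 1 spot error in 7 of 12, and in the same order of settings moved to 0.15, 0.34, 0.62, 0.74 and 0.44. For miR-128-3p, under the limit on both arrays, the difference of -0.0015 moved to -0.49 with median scaling, -0.54 with 75th percentile scaling, 0.30 with spike scaling, -0.50 with plain subtraction and median scaling, and 0.44 with plain subtraction and no normalization. The authors' values do not list it. The combined settings of plain subtraction were chosen after seeing the data. The median of all probes detected on both arrays moved to 0.45 without normalization, 0.73 with spike scaling, 0.72 and -0.23 with plain subtraction under no normalization and median scaling, -0.10 with the 75th percentile, and 0.41 in the authors' values.

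The count of probes at 2-fold or more in either direction, 0 as reported, was 40 with plain subtraction, 11 with the scanner's column, 8 with an offset of 16, 10 without normalization, 95 with spike scaling, 74 and 159 with plain subtraction under median scaling and no normalization, and 87 in the authors' values. A detection limit at 5 SD left 524 probes in BNCT and 356 in control, and 1 miR-128 probe in control, since miR-128-1-5p fell under it there. A limit from the spots without a probe left 387 in BNCT and 225 in control, and 1 miR-128 probe, miR-128-2-5p, on each array. The cause of these moves was not tested. miR-128-1-5p and the list members named are close enough to the blanks that signal over background limits what their differences can show. No paired analysis was possible because each group has 1 array.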

Other observations

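The probes whose normalized log2 levels on the 2 arrays lay nearest to those of each miR-128 probe, by Euclidean distance over the 2 arrays, were miR-4687-3p (distance 0.020) and miR-6849-5p (0.024) for miR-128-2-5p. For miR-128-1-5p they were miR-4539 (0.013) and miR-7110-5p (0.018), and for miR-128-3p miR-2115-5p (0.004) and miR-5580-3p (0.005). With 2 arrays such likeness is a description of brightness only. miR-4687-3p read 462.0 units in BNCT and 364.4 units in control, a difference of 0.14, and miR-4539 read 306.3 units in BNCT and 289.5 units in control, a difference of -0.09.

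The 8 spots printed around miR-128-2-5p had a median of 257.7 units in BNCT and 263.7 units in control, near the blanks. One of them, miR-6822-5p, was brighter than miR-128-2-5p, at 564.0 units in BNCT and 459.8 units in control. Around miR-128-1-5p the 8 spots had a median of 286.8 units in BNCT and 273.2 units in control, and the brightest, miR-6792-5p, read 398.1 units in BNCT and 340.2 units in control. Whether a bright neighbour adds to these readings was not tested. Around miR-128-3p the 5 neighbouring spots ran up to 266.3 units in BNCT and 260.1 units in control.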
